A study of Homo sapiens with 20 samples.

Results

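The 10 genes described here encode kinases, transcription factors and feedback inhibitors of cytokine signaling in T cells. They are the Janus kinases JAK1, JAK2, JAK3 and TYK2, the transcription factors STAT3, STAT5A and STAT5B, and the suppressors SOCS1, SOCS3 and CISH, and they were taken by name from the 60719 genes of the table. All 10 passed the low-count filter, as did 16327 genes in all. RNA was sequenced from Jurkat cells, an established line from a T cell leukemia (WT), and from JinB8, 1 somatic mutant line of Jurkat selected for loss of CD47, called CD47- here. With 1 mutant and 1 WT line, loss of CD47 cannot be told apart from other differences between the lines. Each line gave 10 libraries. Cells were kept in serum-free HITES medium and were left untreated (1 library, 1 h), plated on antibodies to CD3 and CD28 (CD3+CD28), plated on both antibodies with thrombospondin-1 (CD3+CD28+TSP1), or given TSP1 alone, with 1 library at each of 1, 3 and 6 h for these 3 treatments. TSP1 was used at 1 μg/mL and anti-CD28 at 4 μg/mL. For anti-CD3 the study's methods give 2 μg/mL and the sample descriptions 2 mg/mL. Each condition was sequenced once, and no source says that libraries came from separate cultures. In the main test between the lines, p-values thus measure the spread between libraries of different treatments and times. In the tests of times and treatments, they rest on the spread left after the model terms for line, treatment and time.

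Cytokine receptors of T cells carry no kinase activity and work through JAKs bound to their tails. A bound cytokine brings receptor chains and their JAKs together, the JAKs phosphorylate the receptor and then the STATs, and paired STATs enter the nucleus and act on promoters. CISH, SOCS1 and SOCS3 are among the genes that STATs switch on, and their proteins act back on receptors or JAKs, which limits the signal. JAK3 serves the receptors that share the common gamma chain, such as those for interleukin-2 and interleukin-7. STAT5A and STAT5B are close paralogs that both respond to these cytokines.

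The totals per library ran from 20483642 to 31737616 expected counts for WT, and for CD47- cells from 16107921 to 28525524. The shallowest library was CD47- CD3+CD28+TSP1 at 3 h. Levels are given as CPM (counts scaled to a common library total) after TMM scaling of the library totals. The 10 T cell markers of the fixed list (among them CD3D and LCK) were all detected and summed to between 1356 and 1829 CPM in WT libraries and between 1538 and 2221 CPM in CD47- libraries. By the test given below, 6 of them were called higher and 1 lower in CD47- cells, against 19.8% and 20.6% of all genes. The higher ones included CD2, CD28 and CD5, with log2 fold changes of 1.43, 2.35 and 0.54. The lower one was ZAP70, with a log2 fold change of -0.92 and means of 220 CPM (WT) and 116 CPM (CD47-). The 5 myeloid, 5 mesenchymal and 5 epithelial markers summed to at most 1.92, 8.79 and 3.78 CPM in any library. The 5 B cell markers summed to between 35.6 and 56.0 CPM in WT and between 5.86 and 13.7 CPM in CD47- libraries (CD79A was lower, with a log2 fold change of -2.64), and the part of this in the results below was not tested. CD47 itself lay between 253 and 372 CPM in WT and between 124 and 165 CPM in CD47- libraries, and was lower in CD47- cells in all 10 pairs matched on treatment and time. Its RNA was thus still present in the mutant line.

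Many STATs bind the palindrome TTCNNNGAA, which reads the same on both strands. The 250 bases before the annotated starts of the 10 genes (RefSeq, GRCh38.p14) were searched for it, and 1 of 18 windows held it, that of CISH. Of all 35116 such windows, 2306 (6.57%) held at least 1 match and 5 (0.0142%) held 4 or more. The CISH window (chr3:50611775-50612024, minus strand) held 4 matches, which begin 241, 230, 129 and 112 bases before the start and are in capitals below. The windows of the other feedback genes, SOCS1 (chr16:11256205-11256454, minus strand) and the upstream one of SOCS3 (chr17:78360926-78361175, minus strand), held none and are shown for comparison. In GENCODE, SOCS3 spans chr17:78356778-78360077 on the minus strand. Neither SOCS3 window covers the 250 bases before that gene start, which were thus not searched. The STAT5B window (chr17:42276392-42276641, minus strand) lies inside the GENCODE span of STAT5B, so the bases before that start were not searched either. A match is only a run of letters, and its absence from a window says nothing of STAT binding there.
CISH: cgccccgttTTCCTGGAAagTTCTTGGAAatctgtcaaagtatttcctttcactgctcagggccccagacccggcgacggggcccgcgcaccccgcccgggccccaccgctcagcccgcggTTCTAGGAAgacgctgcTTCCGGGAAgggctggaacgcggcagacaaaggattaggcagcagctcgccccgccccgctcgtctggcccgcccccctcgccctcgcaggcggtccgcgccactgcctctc
SOCS1: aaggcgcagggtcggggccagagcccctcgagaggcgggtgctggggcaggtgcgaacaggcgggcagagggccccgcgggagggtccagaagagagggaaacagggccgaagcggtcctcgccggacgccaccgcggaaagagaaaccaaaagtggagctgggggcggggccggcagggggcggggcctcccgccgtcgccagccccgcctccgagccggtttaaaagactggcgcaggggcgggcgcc
SOCS3: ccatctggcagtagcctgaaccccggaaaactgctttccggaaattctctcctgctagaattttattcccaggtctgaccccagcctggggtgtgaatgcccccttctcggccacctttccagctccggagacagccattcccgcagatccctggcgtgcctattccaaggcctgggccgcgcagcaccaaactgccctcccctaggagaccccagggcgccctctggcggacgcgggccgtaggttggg

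The lines differed most in STAT5A and STAT5B. STAT5A was 5.44-fold higher in CD47- cells, STAT5B 2.44-fold higher and SOCS3 1.89-fold higher, while TYK2 and STAT3 were lower, to 0.775 and 0.832 of the WT mean. The lines were compared with the edgeR quasi-likelihood test on 10 libraries each, with Benjamini-Hochberg adjustment over all 16327 genes and a threshold of 0.05. Of the 10 genes, 3 were higher and 2 lower in CD47- cells, and 5 were not called. Over all genes tested, 19.8% were higher and 20.6% lower, so the number called among the 10 was near that of genes in general. The median log2 fold change of the 10 genes was -0.17, and that of all genes tested was -0.01.

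**Figure D1:**
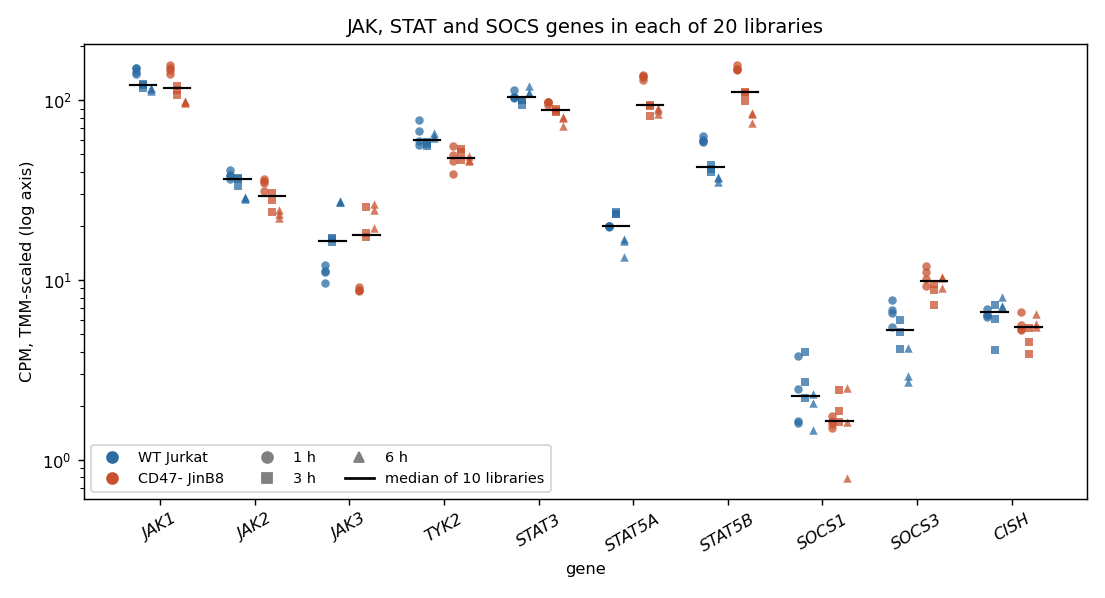
CPM (TMM-scaled, log axis) of the 10 genes in each of the 20 libraries. Colour gives the line, the symbol gives the time, and the bar is the median of 10 libraries. The STAT5A points of the CD47- line (81.9 to 138 CPM) lie above all WT points (13.5 to 23.96 CPM), while the JAK1 points of both lines overlap.

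In WT libraries, STAT5A ran from 13.5 to 23.96 CPM with a median of 20 CPM. In CD47- libraries it ran from 81.9 to 138 CPM with a median of 93.9 CPM. The highest WT library thus lay below the lowest CD47- library by more than the whole WT range. The log2 fold change was 2.44 ± 0.13 (SE, adjusted p = 7.39e-13 in edgeR), and STAT5A was higher in 10 of 10 matched pairs. Within the pairs the log2 difference ran from 1.75 to 2.76. Leaving out any 1 of the 20 libraries gave log2 fold changes of 2.39 to 2.50.

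STAT5B ran from 35.3 to 63.5 CPM in WT, with a median of 42.7 CPM, and from 75.0 to 156 CPM in CD47- libraries, with a median of 111 CPM. These ranges did not overlap either. The log2 fold change was 1.29 ± 0.16 (SE, adjusted p = 5.56e-07 in edgeR), again with the higher value in CD47- cells in 10 of 10 pairs. The log2 differences within pairs lay between 1.08 and 1.46, so no pair reached the smallest STAT5A difference. STAT5A relative to STAT5B, as a ratio of CPM, was 0.429 ± 0.104 (SD, n = 10) in WT and 0.938 ± 0.109 (SD, n = 10) in CD47- cells. These ratios also did not overlap, with a highest WT value of 0.578 and a lowest CD47- value of 0.828.

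STAT5A and STAT5B share sequence, and RSEM splits reads that fit both, which left fractional counts in both genes. Of the windows of read length in the main coding transcripts, 9.16% in STAT5A and 6.48% in STAT5B occur in the other gene. In STAT5A-206 and STAT5A-202, retained intron transcripts that together hold most STAT5A counts, the shares were 0.514% and 2.08%. The genes also lie head to head on chromosome 17 (GRCh38, GENCODE version 44), with STAT5B at chr17:42199176-42288633 on the minus strand and STAT5A at chr17:42287547-42311943 on the plus strand. Their annotated spans overlap by 1087 bases, where both genes start. The strand setting of the counting is not given in the sources used here, so reads from that overlap cannot be told apart. STAT3 (chr17:42313324-42388540, minus strand) starts its annotated span 1381 bases beyond STAT5A and moved the other way. Of the 23 other tested genes within 250 kb, 7 were higher and 4 lower in CD47- cells, against 19.8% and 20.6% of all genes, with log2 fold changes from -0.77 to 1.12 around a median of 0.05. The STAT5A difference thus exceeded that of each of these neighbours.

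SOCS3, a feedback inhibitor of cytokine receptors such as those of the interleukin-6 family, ran from 2.71 to 7.77 CPM in WT (median 5.31 CPM) and from 7.31 to 11.9 CPM in CD47- libraries (median 9.88 CPM). The ranges overlapped between the highest WT and the lowest CD47- library. The log2 fold change was 0.92 ± 0.16 (SE, adjusted p = 7.97e-05 in edgeR), and SOCS3 was higher in CD47- cells in 10 of 10 pairs. CISH, a feedback inhibitor that STAT5 switches on, did not move with the STAT5 genes. It ran from 4.08 to 8.11 CPM in WT (median 6.67 CPM) and from 3.89 to 6.69 CPM in CD47- libraries (median 5.47 CPM), and was lower in CD47- cells in 8 of 10 pairs. Its log2 fold change was -0.27 ± 0.12 (SE, adjusted p = 0.0669 in edgeR), with an interval of 2 SE from -0.50 to -0.04. SOCS1, which inhibits JAKs directly, had the lowest counts of the 10 genes, between 18 and 88 per library. It ran from 1.48 to 3.99 CPM in WT and from 0.792 to 2.52 CPM in CD47- libraries, with a log2 difference of -0.48 ± 0.21 (SE, adjusted p = 0.0656 in edgeR). SOCS1 was lower in CD47- cells in 8 of 10 pairs. In the pairs without antibodies the log2 difference was -0.004 untreated and -0.005, -0.35 and 0.11 under TSP1 at 1, 3 and 6 h. In the pairs with antibodies it lay between -1.13 and 0.22.

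Among the kinases the differences were small. TYK2, which serves interferon and interleukin-12 receptors, ran from 55.5 to 78.2 CPM in WT (median 60.4 CPM) and from 38.7 to 55.5 CPM in CD47- libraries (median 48.0 CPM). Its ranges met at their edges without overlap, and TYK2 was lower in CD47- cells in 10 of 10 pairs, with a log2 difference of -0.37 ± 0.07 (SE, adjusted p = 0.000287 in edgeR). JAK2 had medians of 36.5 CPM (WT) and 29.2 CPM (CD47-). It was lower in 10 of 10 pairs but was not called, with a log2 difference of -0.25 ± 0.11 (SE, adjusted p = 0.0599 in edgeR). JAK1, the JAK most widely used by cytokine receptors, had medians of 122 and 117 CPM, and its log2 fold change of -0.07 had an interval of 2 SE from -0.27 to 0.13. JAK3 had medians of 16.6 and 17.8 CPM and a log2 fold change of -0.08, with an interval of 2 SE from -0.60 to 0.44. STAT3, the main transcription factor of interleukin-6 and interleukin-10 signals, had medians of 104 CPM (WT) and 88.1 CPM (CD47-). It was lower in 10 of 10 pairs, with a log2 difference of -0.26 ± 0.06 (SE, adjusted p = 0.0022 in edgeR).

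**Figure D2:**
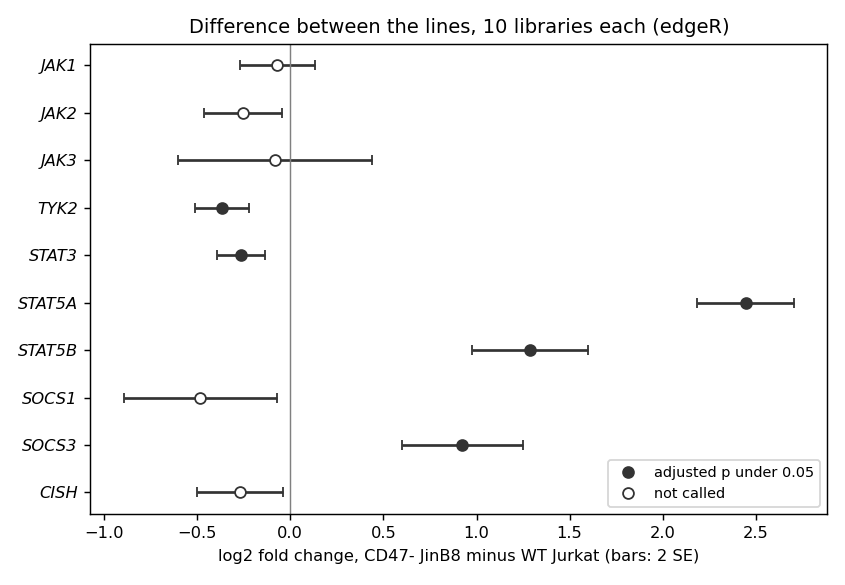
Log2 fold change of each of the 10 genes, CD47- minus WT, with bars of 2 SE (edgeR, 10 libraries per line). Filled points passed the threshold: STAT5A (2.44), STAT5B (1.29) and SOCS3 (0.92) on the higher side, and TYK2 (-0.37) and STAT3 (-0.26) on the lower side.

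The CPM ranges of the lines did not overlap for 3 of the 10 genes, STAT5A, STAT5B and TYK2, against 11.5% of all genes tested. With the 10 matched pairs as a block in the edgeR fit, JAK2 (adjusted p = 0.00159), SOCS1 (adjusted p = 0.0456) and CISH (adjusted p = 0.0246) were also called, all lower in CD47- cells. With time and treatment as covariates the same 3 genes were added (adjusted p = 0.000217, 0.0446 and 0.0221). These fits called 8 of the 10 genes each, against 54.9% (block) and 57.9% (covariates) of all genes. Limma voom with quantile normalization, the method of the study, added SOCS1 (adjusted p = 0.0306) and CISH (adjusted p = 0.0278) for 7 of the 10, against 42.0% of all genes, and DESeq2 added CISH (adjusted p = 0.0497) for 6 of the 10, against 42.9%. In the 4 pairs without antibodies, TYK2 (edgeR adjusted p = 0.0868) and STAT3 (edgeR adjusted p = 0.283) were no longer called, with log2 fold changes of -0.38 and -0.22, which left 3 of the 10 called against 16.4% of all genes. JAK3 was called lower in the 4 pairs at 1 h (-0.31, edgeR adjusted p = 0.0167) and JAK2 in the 6 pairs at 3 and 6 h (-0.34, edgeR adjusted p = 0.0226), with 6 of the 10 called in each subset against 49.2% and 36.5% of all genes. In the fit without block or covariates, leaving out 1 library kept the 5 calls and gave adjusted p between 0.0294 and 0.125 for JAK2, between 0.0372 and 0.148 for SOCS1 and between 0.0129 and 0.133 for CISH.

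Counts per kilobase of merged exons give a rough order of the genes within a line. The merged length joins the exons of all annotated transcripts, so the order and ratios below depend on the annotation. For STAT5B it is 12110 bases, while STAT5B-201, which holds 94.9% of its counts, has 5079. For STAT5A it is 6385 bases, against 3239 for STAT5A-206 and 3629 for STAT5A-207. In WT cells the means of CPM per kilobase over all 10 libraries, times pooled, ran from high to low JAK1 (9.79), STAT3 (9.45), TYK2 (7.31), JAK2 (4.39), STAT5B (3.94), STAT5A (3.09), JAK3 (2.11), SOCS3 (1.89), SOCS1 (1.36) and CISH (1.301). Neighbours in this order overlapped in their ranges, apart from TYK2 and JAK2. In CD47- cells the pooled means of STAT5A (16.8) and STAT5B (9.61) stood first, followed by JAK1 (9.33), STAT3 (7.87), TYK2 (5.67), JAK2 (3.68), SOCS3 (3.58), JAK3 (2.00), CISH (1.08) and SOCS1 (0.973). Here every pair of neighbours overlapped over the pooled times. Within single CD47- libraries, STAT5A on this scale was 1.57 to 2.13 times STAT5B. STAT5A thus held the sixth place in WT and the first in CD47- cells on pooled means. By time, STAT5A stood in place 1 at 1, 3 and 6 h in CD47- cells and in places 6, 5 and 7 in WT. STAT5B held place 2 at 1 and 3 h in CD47- cells and place 4 at 6 h, where it read 6.70 against 7.43 for JAK1 and 6.93 for STAT3. In WT at 6 h, STAT3 stood in place 1 with 10.1 against 8.70 for JAK1. JAK3 went from place 9 at 1 h to place 5 at 6 h in WT, and to place 8 in CD47- cells. On this scale STAT5A was on average 0.813 of STAT5B in WT and 1.78 times STAT5B in CD47- cells. On the CPM scale the ratio in CD47- libraries was 0.873 to 0.941 at 1 h, 0.828 to 0.862 at 3 h and 1.06 to 1.12 at 6 h, so STAT5A also read higher than STAT5B in CPM at 6 h.

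The transcripts that hold the reads were examined next, named here after GENCODE version 44. Of the STAT5A counts over all libraries, 55.6% were assigned to STAT5A-206, which is annotated as a retained intron transcript, 19.9% to the coding transcript STAT5A-207 and 15.9% to STAT5A-202, also a retained intron transcript. All 3 were higher in CD47- cells, by log2 fold changes of 2.44 ± 0.13 (SE, adjusted p = 1.35e-11 in edgeR), 3.37 ± 0.54 (SE, adjusted p = 0.00012 in edgeR) and 2.74 ± 0.22 (SE, adjusted p = 1.01e-08 in edgeR). The share of STAT5A-206 was 56.7% ± 5.03 (SD, n = 10) in WT and 55.5% ± 2.44 (SD, n = 10) in CD47- cells. The share of the coding STAT5A-207 was 11.4% ± 7.90 in WT and 21.5% ± 4.61 in CD47- cells, with WT libraries from 0 to 22.2% and CD47- libraries from 14.5% to 28.6%, which overlap. STAT5B was carried almost wholly by the coding STAT5B-201, with 94.9% of its counts and a log2 difference of 1.37 ± 0.15 (SE, adjusted p = 1.19e-06 in edgeR).

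CISH was split between the retained intron transcript CISH-203 (53.6% of counts) and the coding CISH-201 (45.6%), and neither was called between the lines. SOCS1 was held by the coding SOCS1-201 (75.3%) and SOCS1-202 (24.7%), and JAK3 by the coding JAK3-201 (80.7%). Other main coding transcripts held 44.4% of the JAK1 counts (JAK1-201), 55.3% of the STAT3 counts (STAT3-201) and 47.6% of the TYK2 counts (TYK2-204). Of 57 isoforms of the 10 genes tested, 9 (15.8%) were called, namely 4 of STAT5A, 1 of STAT5B and 1 of SOCS3 on the higher side, 1 of TYK2 on the lower side and 1 of STAT3 on each side, against 15.1% of all isoforms tested, so the share called was near that of isoforms in general. A change in the share of an isoform within its gene could not be tested for JAK2 and SOCS3, with 1 tested isoform each. None was called for the other genes by diffSpliceDGE of edgeR, which called 0.647% of all isoforms tested. In simulated data that test called many unchanged isoforms and missed most of the changed ones, so the absence of a call does not show that shares were equal. Its likelihood ratio form, added after seeing this, called 1 of 17 tested isoforms of STAT3 and 2 of 4 of STAT5B, against 2.20% of all isoforms tested. In the simulated data this form recovered 2.985% of 1.5-fold, 20.9% of 2-fold and 74.2% of 4-fold changes. It too missed most of the smaller changes.

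Over time, JAK3 rose and JAK1, JAK2, STAT5A and STAT5B fell by 6 h in both lines. The time points were compared in an edgeR model of all 20 libraries with a term for each line and treatment and for 3 and 6 h in each line, in which the untreated libraries carry no weight for time. In WT cells, 3 h against 1 h, JAK3 and STAT5A rose and JAK1, TYK2 and STAT5B fell, against 16.9% of all genes higher and 17.4% lower. In WT cells at 6 h, JAK3 rose and JAK1, JAK2, STAT5A, STAT5B and SOCS3 fell, against 25.7% higher and 24.8% lower. In CD47- cells at 3 h, JAK3 rose and JAK1, JAK2, STAT3, STAT5A and STAT5B fell, against 18.0% higher and 20.1% lower. At 6 h JAK3 rose and those 5 genes were again lower than at 1 h in CD47- cells, against 26.0% higher and 27.0% lower. Of the 10 genes, 3 were called lower in the first of these comparisons and 5 in each of the other three.

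**Figure D3:**
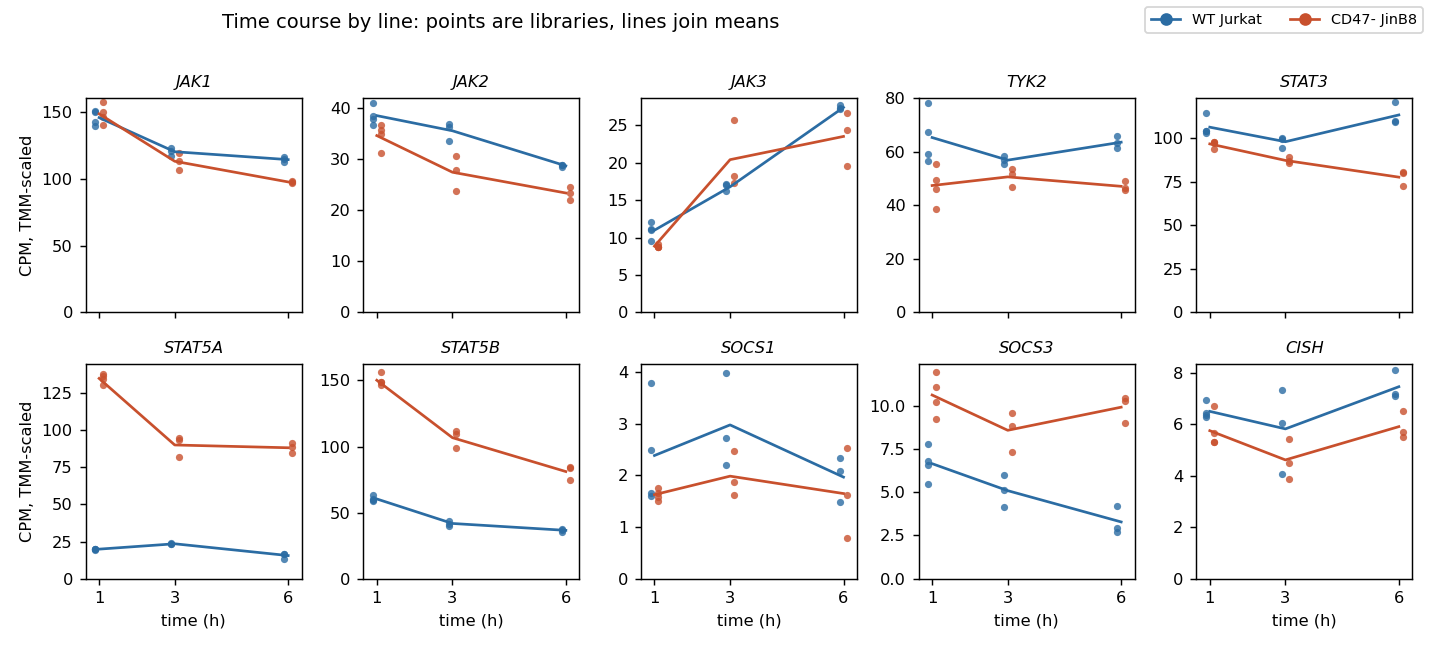
CPM (TMM-scaled) of the 10 genes against time (1, 3 and 6 h) in both lines. Points are libraries, untreated ones included at 1 h, and lines join the means. JAK3 is higher at 6 h than at 1 h in every library of both lines, and SOCS3 falls from a mean of 6.65 to 3.28 CPM in WT while it ends at 9.91 CPM in CD47- cells.

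JAK3 in WT cells read 12.1 CPM untreated and 9.61, 11.1 and 11.2 CPM at 1 h under CD3+CD28, CD3+CD28+TSP1 and TSP1. In the same order it read 16.2, 17.2 and 17 CPM at 3 h and 27.4, 27.2 and 27.7 CPM at 6 h. The 3 time points did not overlap, whatever the treatment. In CD47- cells JAK3 read 8.79 CPM untreated and 8.72, 9.15 and 8.81 CPM at 1 h, then 17.3, 25.7 and 18.3 CPM at 3 h and 24.4, 26.6 and 19.6 CPM at 6 h. The value of 25.7 CPM belongs to the shallowest library. The log2 fold changes at 6 h were 1.37 ± 0.11 (SE, adjusted p = 2.37e-07 in edgeR) in WT and 1.39 ± 0.11 (SE, adjusted p = 1.78e-07 in edgeR) in CD47- cells, and their difference of 0.03 was not called (edgeR adjusted p = 0.927, interval of 2 SE from -0.28 to 0.33). At 3 h the log2 fold changes were 0.66 in WT and 1.181 in CD47- cells, and their difference of 0.52 was not called (edgeR adjusted p = 0.0774).

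STAT5A took different courses. In WT cells it read 20 CPM untreated and 20, 19.6 and 20.1 CPM at 1 h under CD3+CD28, CD3+CD28+TSP1 and TSP1, rose to 23.2, 23.96 and 23.4 CPM at 3 h and read 16.9, 16.5 and 13.5 CPM at 6 h. In CD47- cells it read 134 CPM untreated and 130, 136 and 138 CPM at 1 h, then 93.3, 81.9 and 94.6 CPM at 3 h and 91.2, 88.7 and 84.3 CPM at 6 h. Every WT library at 3 h was above, and every CD47- library at 3 h below, those of the same line at 1 h. The log2 change at 3 h was 0.24 ± 0.08 (SE, adjusted p = 0.0373 in edgeR, but 0.0644 in limma voom and 0.163 without the low-count filter) in WT and -0.59 ± 0.08 (SE, adjusted p = 6.48e-05 in edgeR) in CD47- cells. Their difference was -0.83 ± 0.11 (SE, adjusted p = 0.00158 in edgeR), against 4.28% of all genes called in this interaction, and its adjusted p stayed at or below 0.0124 without any 1 library. At 6 h STAT5A was lower than at 1 h in both lines, with log2 changes of -0.35 in WT and -0.61 in CD47- cells, and the difference of -0.26 was not called (edgeR adjusted p = 0.137), except without WT TSP1 at 6 h (adjusted p = 0.048).

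STAT5B fell in both lines. In WT cells it read 59.5 CPM untreated and 63.5, 58.5 and 60.1 CPM at 1 h, then 40.2, 41.5 and 43.9 CPM at 3 h and 37.7, 36.9 and 35.3 CPM at 6 h, in the order given above. In CD47- cells it read 149 CPM untreated and 149, 156 and 147 CPM at 1 h, then 112, 99.0 and 110 CPM at 3 h and 84.7, 83.6 and 75.0 CPM at 6 h. The time points did not overlap in either line. The log2 changes at 6 h were -0.73 ± 0.07 (SE, adjusted p = 1.71e-06 in edgeR) in WT and -0.89 ± 0.07 (SE, adjusted p = 1.62e-07 in edgeR) in CD47- cells, and the difference of -0.17 was not called (edgeR adjusted p = 0.287, interval of 2 SE from -0.37 to 0.03).

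SOCS3 separated the lines further by 6 h. In WT cells it read 5.47 CPM untreated and 6.55, 7.77 and 6.81 CPM at 1 h, then 5.98, 4.14 and 5.15 CPM at 3 h and 2.94, 2.71 and 4.20 CPM at 6 h, in the same order. In CD47- cells it read 11.1 CPM untreated and 10.2, 11.9 and 9.25 CPM at 1 h, then 9.56, 7.31 and 8.84 CPM at 3 h and 10.2, 10.5 and 9.02 CPM at 6 h. Every WT library at 6 h lay below every WT library at 1 h, whereas the CD47- libraries at 1 and 6 h overlapped. The log2 change at 6 h was -1.12 ± 0.19 (SE, adjusted p = 0.000184 in edgeR) in WT and -0.08 ± 0.17 (SE, adjusted p = 0.728 in edgeR) in CD47- cells. Their difference was 1.04 ± 0.25 (SE, adjusted p = 0.0125 in edgeR), and without WT CD3+CD28+TSP1 at 6 h it was 0.93 and no longer called (adjusted p = 0.057). At 3 h the difference was 0.20 ± 0.25 (SE, adjusted p = 0.674 in edgeR) and was not called.

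JAK1 and STAT3 also differed between the lines in their change by 6 h, so that 3 of the 10 genes were called in this interaction, against 16.6% of all genes. JAK1 went from 140 to 151 CPM at 1 h to 113 to 116 CPM at 6 h in WT, and from 141 to 158 CPM to 96.99 to 98.9 CPM in CD47- cells. The log2 changes were -0.33 and -0.63, both called, and their difference was -0.30 ± 0.08 (SE, adjusted p = 0.0182 in edgeR). That call was lost without WT CD3+CD28+TSP1 at 1 h (adjusted p = 0.107), WT TSP1 at 1 h (0.0675), WT CD3+CD28 at 6 h (0.0666), WT CD3+CD28+TSP1 at 6 h (0.061) or CD47- TSP1 at 6 h (0.122), and without the low-count filter (0.211). STAT3 read 103 to 115 CPM at 1 h and 109 to 121 CPM at 6 h in WT, a log2 change of 0.08 that was not called (edgeR adjusted p = 0.228). In CD47- cells it went from between 93.9 and 98.1 CPM to between 72.4 and 80.9 CPM, a log2 change of -0.32 ± 0.05 (SE, adjusted p = 0.00024 in edgeR). The difference was -0.40 ± 0.08 (SE, adjusted p = 0.00343 in edgeR) and was called without any 1 library.

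JAK2 fell by 0.39 ± 0.07 (SE, adjusted p = 0.000273 in edgeR) on the log2 scale at 6 h in WT and by 0.55 ± 0.07 (SE, adjusted p = 1.44e-05 in edgeR) in CD47- cells. SOCS1 and CISH were called at neither time in either line with all libraries. Without CD47- TSP1 at 3 h, CISH was called lower at 3 h in CD47- cells (edgeR adjusted p = 0.0422). Its log2 change was then -0.52, against -0.35 with all libraries (edgeR adjusted p = 0.114). TYK2 had a log2 change at 3 h of -0.24 in WT and 0.18 in CD47- cells. The CD47- change was not called (edgeR adjusted p = 0.0992), but was with at least 1 CPM in every library (0.0495). Leaving out WT CD3+CD28 (0.0339) or CD3+CD28+TSP1 (0.0397) at 1 h also gave that call. The difference between the lines of 0.42 ± 0.12 (SE, adjusted p = 0.0612 in edgeR) was not called. It was called by DESeq2 (adjusted p = 0.0291, 6.55% of all genes called), with at least 1 CPM in every library (0.0414, 6.29% of all genes called), and without WT CD3+CD28 at 1 h (0.0129) or CD47- CD3+CD28+TSP1 at 3 h (0.0397). The 3 h calls of small size were not stable. That of TYK2 in WT cells (log2 change -0.24, edgeR adjusted p = 0.0396) and that of STAT5A in WT cells were lost with limma voom (adjusted p = 0.0792 and 0.0644) and without the low-count filter (0.0682 and 0.163), and leaving out 1 library gave adjusted p between 0.00798 and 0.245 for TYK2 and between 0.0134 and 0.165 for STAT5A. The TYK2 call was lost without WT CD3+CD28+TSP1 or TSP1 at 1 h, any WT library at 3 h, WT CD3+CD28+TSP1 at 6 h, or CD47- CD3+CD28 at 1 or 6 h. The STAT5A call was lost without WT CD3+CD28 or CD3+CD28+TSP1 at 1 h, any WT library at 3 h, or CD47- CD3+CD28 at 6 h. The 3 h call of STAT3 in CD47- cells (log2 change -0.15, edgeR adjusted p = 0.0485) held only without WT or CD47- untreated or WT CD3+CD28 at 3 h, and was lost without any of the other 17 libraries, with adjusted p up to 0.183. It was also lost with DESeq2 (adjusted p = 0.0800), limma voom (log2 change -0.054, adjusted p = 0.472), RLE factors (0.0562), no low-count filter (0.432) and at least 1 CPM in every library (0.0758). SOCS3 at 3 h in WT cells (log2 change -0.48, edgeR adjusted p = 0.0539) was not called, but was called with limma voom (0.0408) and without the low-count filter (0.0248). Leaving out 1 library gave it adjusted p between 0.0230 and 0.305, with a call without WT TSP1 at 1 or 6 h, WT CD3+CD28 at 3 h, or CD47- CD3+CD28+TSP1 at 1 or 3 h. Over the 20 libraries, centred within each line, the log2 CPM of JAK1, JAK2 and STAT5B went together (Pearson r of 0.91 for JAK1 with JAK2 and 0.96 for JAK1 with STAT5B) and JAK3 ran opposite to JAK1 (r of -0.93). These points share the time course, and the correlations are given as a description.

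None of the 10 genes passed the threshold in the 8 comparisons of treatments that were run, which do not include TSP1 alone against untreated. SOCS1, with the lowest counts, had some of the widest intervals. In WT cells it read 1.66 CPM untreated, 2.49, 3.99 and 2.33 CPM under CD3+CD28 at 1, 3 and 6 h, 3.79, 2.73 and 2.09 CPM under CD3+CD28+TSP1, and 1.60, 2.21 and 1.48 CPM under TSP1 alone. Both sets of activated libraries lay above TSP1 alone at each of the 3 times. The log2 change of CD3+CD28+TSP1 against TSP1 was 0.70 (SE 0.33) with an unadjusted p of 0.0504 in the edgeR model and an adjusted p of 0.996, so it did not pass the test. In CD47- cells SOCS1 read 1.65 CPM untreated, 1.75, 2.47 and 0.792 CPM under CD3+CD28, 1.51, 1.87 and 2.52 CPM under CD3+CD28+TSP1 and 1.59, 1.62 and 1.63 CPM under TSP1. The 0.792 CPM rests on 18 counts. The log2 change there was 0.30 ± 0.34 (SE, adjusted p = 0.661 in edgeR), and the difference between the lines was not called (edgeR adjusted p = 0.798).

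For CD3+CD28+TSP1 against TSP1 in WT cells, 0 of the 10 genes were called by edgeR, against 15 of 16327 genes (0.0919%), 1 of the 10 had an unadjusted p under 0.05, and DESeq2 and limma voom called 54 and 28 genes but none of the 10. The 15 genes, all higher, include PTPN6, a phosphatase that acts on JAKs and on receptor tails, with a log2 change of 0.70. In the other 7 comparisons of treatments (activation with TSP1 in CD47- cells, TSP1 on activated cells in each line, CD3+CD28 against untreated in each line, and both differences between the lines), edgeR called 0 genes (0%) and so 0 of the 10. Unadjusted p-values under 0.05 were found for between 366 and 2636 genes and for between 0 and 3 of the 10 in these comparisons. DESeq2 called at most 7 genes and limma voom 0, none of them among the 10. The lowest unadjusted p of the 10 was that of JAK2 in CD47- cells, CD3+CD28+TSP1 against TSP1, with a log2 change of -0.25 (SE 0.07), an edgeR adjusted p of 0.283 and an unadjusted p of 0.00297. STAT5A changes lay close to 0, for example 0.00 (interval of 2 SE from -0.17 to 0.17) in WT and -0.05 (-0.20 to 0.10) in CD47- cells for TSP1 on activated cells. CISH changes for TSP1 on activated cells were 0.21 (-0.11 to 0.54) in WT and -0.24 (-0.58 to 0.09) in CD47- cells. The comparisons with untreated cells rest on 1 untreated library in each line, so the absence of calls there says little.

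Other genes of the pathway were counted from lists put together for this description. Of the 4 other STATs tested, 2 were higher in CD47- cells and none lower, against 19.8% and 20.6% of all genes, STAT2 with a log2 difference of 0.69 ± 0.17 (SE, adjusted p = 0.00268 in edgeR) and STAT6, the interleukin-4 STAT, with 0.42 ± 0.08 (SE, adjusted p = 0.00025 in edgeR). Of the 5 other SOCS genes, SOCS2 was higher, with means of 3.68 CPM (WT) and 9.32 CPM (CD47-), ranges of 2.09 to 5.46 CPM and 6.998 to 11.5 CPM that did not overlap and a log2 difference of 1.34 ± 0.16 (SE, adjusted p = 4.05e-07 in edgeR). SOCS4 was lower, with a log2 fold change of -0.40. Of 10 PIAS proteins, phosphatases and adaptors that damp the pathway, 2 were higher and 4 lower, against 19.8% and 20.6% of all genes. SH2B3 (0.73) and PTPN6 (0.69) were the higher ones, and PIAS2 (-0.36) was among the lower.

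Of 20 receptor chains that use JAKs, 16 were tested, 5 were higher and 5 lower, against 19.8% and 20.6% of all genes, with a median log2 fold change of 0.08. IL7R, the interleukin-7 receptor chain, was lower, with means of 38.9 CPM (WT) and 7.17 CPM (CD47-) and a log2 difference of -2.44 ± 0.27 (SE, adjusted p = 1.71e-07 in edgeR). IL10RA was lower too, with means of 3.78 and 0.689 CPM. IL6R lay at or below 0.0893 CPM in every WT library, under the level of 3 counts, and between 0.531 and 1.15 CPM in CD47- libraries. Of 16 known STAT target genes, 14 were tested, 4 were higher and 4 lower, against the same shares of all genes, with a median of -0.11. CCND2, which encodes cyclin D2, was higher, with means of 1.97 and 13.9 CPM (log2 fold change 2.82, SE 0.23, edgeR adjusted p = 1.01e-09) and so was the perforin gene PRF1, with means of 5.34 and 18.01 CPM (log2 fold change 1.75), while BCL2, an inhibitor of cell death, was lower (log2 fold change -0.77).

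**Figure D4:**
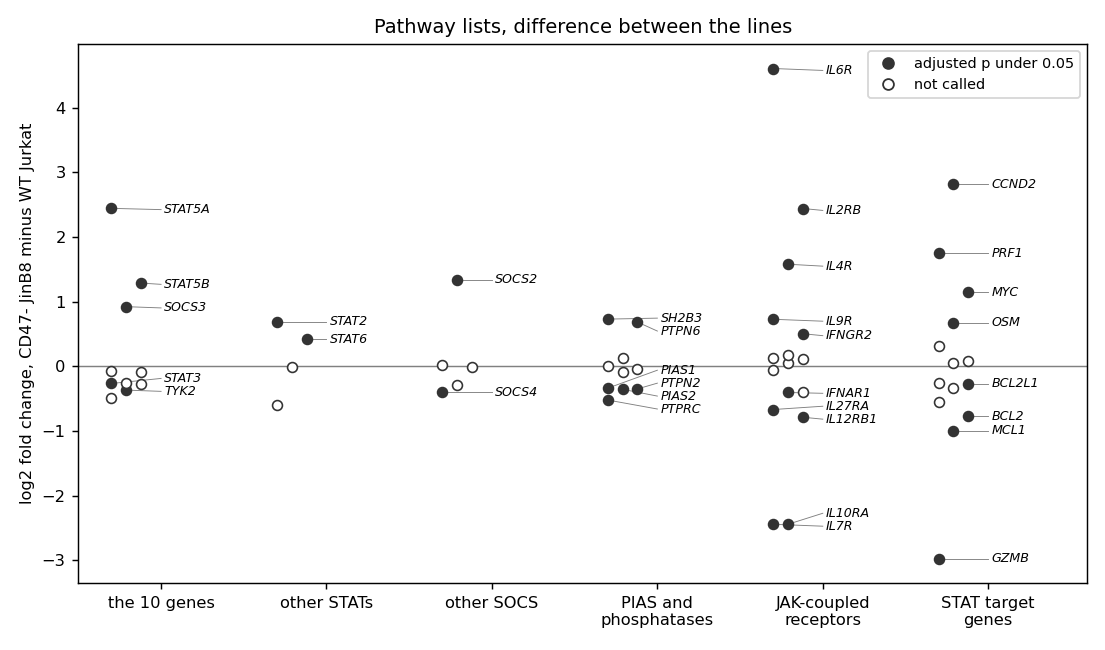
Log2 fold change, CD47- minus WT, of the 10 genes and of the tested genes of 5 pathway lists (edgeR, 10 libraries per line). Filled points passed the threshold and carry their names, and the IL6R point is a fitted value against WT libraries under the level of 3 counts, so its height is no measured fold. Each of the lists of receptors and of target genes holds points on both sides of 0.

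In time, all 5 other SOCS genes were called lower at 6 h in WT cells, with SOCS5 (-0.85), SOCS6 (-0.77) and SOCS2 (-1.02) leading, and 4 of the 5 in CD47- cells, against 24.8% and 27.0% of all genes called lower. STAT4, which responds to interleukin-12, was higher at 6 h in both lines, by 1.05 in WT and 1.47 in CD47- cells on the log2 scale, whereas STAT2 was lower in both. The receptor chain IL7R was higher at 6 h by 1.85 in WT and 0.86 in CD47- cells, and IL6ST, the shared signal chain of the interleukin-6 family, was lower by log2 changes of -0.82 and -0.98.

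Among the genes whose log2 CPM, centred within each line, followed each feedback gene most closely over the 20 libraries were AC083899.1 and CHKB for CISH (Pearson r of 0.84 and 0.83), MLF2, ROM1 and VASP for SOCS1 (0.79, 0.75 and 0.74), and RNU5A-1, TKT and IRS3P for SOCS3 (0.91, 0.90 and 0.89). These r values are among the 3 highest of 16327 genes for each feedback gene and are given as a description.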

How the data were processed

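Poly(A) RNA of 20 libraries, 10 per line, was sequenced by the authors as paired reads. Per the labels and the study's methods, reads were trimmed with Cutadapt 1.18, aligned to hg38 (GRCh38) with STAR 2.4.2a in 2-pass mode and quantified with RSEM 1.3.3 on GENCODE version 36. The deposited values are expected counts from RSEM, not normalized, for genes and for isoforms. Each table also held 2 columns that match no sample, which were not used. The authors' ComBat batch is not named in the sources used here, and that step was not repeated.

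Counts were rounded. Low genes were removed with filterByExpr (10 counts, total 15, lines as groups), and libraries were scaled by TMM and tested with the quasi-likelihood test of edgeR 4.0.16, adjusted by Benjamini-Hochberg over all genes, in R 4.3.3. A total of 3 counts corresponds to between 0.0979 and 0.156 CPM. Log2 CPM took a pseudocount of 0.5. Alternatives were DESeq2 1.42.0, limma 3.58.1 (voom with quantile normalization, as the study did), RLE factors, other filters, a block for matched pairs, covariates, subsets of pairs and each library left out. The likelihood ratio form of diffSpliceDGE was added after seeing the data. Scripts were tested on simulated data. Positions came from GENCODE version 44 and promoters from RefSeq (GRCh38.p14), which held all 10 genes.

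The text names all 10 genes, at most 3 called genes per other list and comparison by smallest p, the 3 genes most like each of SOCS1, SOCS3 and CISH, isoforms with at least 10% of a gene's counts, and CD47, apart from some results that are not reported here. ZAP70, the T cell marker called lower, is named in addition. The genes and lists were chosen with earlier results of these data known. The sample numbers in the labels mark hours, and the 10 pairs are libraries of the lines with equal treatment and time.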

Additional observations from a re-analysis of the deposited data

Results flagged for a closer look

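CISH in WT cells under CD3+CD28 at 3 h read 4.08 CPM, the lowest of the 10 WT libraries, and the next lowest read 6.06 CPM. The gap between them on the log2 scale was 0.569 of the whole range, above the 95% critical value of Dixon's test for 10 values. SOCS1 in CD47- cells under CD3+CD28 at 6 h read 0.792 CPM, against 1.51 CPM in the next lowest CD47- library, with a gap of 0.521 of the range. Of 20 such groups (10 genes in 2 lines), 2 were marked, and chance marks about 1 in 20. These groups mix treatments and times.

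The other results were marked because the change over time differed between the lines in an interaction test of edgeR. STAT5A differed at 3 h by -0.83 on the log2 scale, with a rise in WT and a fall in CD47- cells. At 6 h the differences were 1.04 for SOCS3, -0.30 for JAK1 and -0.40 for STAT3.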

How the results depend on the processing

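All 5 calls between the lines held without any 1 library. With the replicate block of 10 pairs matched on treatment and time, and also with time and treatment as covariates, 8 of the 10 genes were called, against 54.9% and 57.9% of all genes. The labels share no replicate number beyond the hours, so the block rests on matched conditions. JAK3 had a log2 fold change of 0.058 in the 6 activated pairs and of 0.025, 0.0068 and 0.012 without WT CD3+CD28, CD3+CD28+TSP1 or TSP1 at 6 h, and JAK1 had 0.027 in the 1 h pairs, all against a negative value in the full set, and none of them was called in either. The 6 activated pairs gave 4067 genes and the 4 others 2706 genes, with 3 of the 10, against 3229 higher and 3367 lower for all pairs. Fewer libraries entered these fits.

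DESeq2 called 1069 genes and 2 of the 10 in the 3 h interaction, STAT5A and TYK2 (edgeR 698 and 1), 54 for CD3+CD28+TSP1 against TSP1 in WT, 4 for its difference between the lines, 1 for TSP1 on activated WT cells, and 7 (WT) and 2 (CD47-) for CD3+CD28 against untreated. Limma voom called 28 for CD3+CD28+TSP1 against TSP1 in WT. Without a low-count filter these counts were 1397 (3 h interaction), 201 (WT), 538 (CD47-) and 255 (difference) for CD3+CD28+TSP1 against TSP1, 84, 401 and 140 for TSP1 on activated cells, and 271 and 256 against untreated. With at least 1 CPM in every library, 2 of the 10 and 771 of 12251 genes were called in the 3 h interaction. Isoform usage calls numbered 323, then 719 with the replicate block and 1097 in the likelihood ratio form, an alternative chosen after seeing the data. STAT5A over STAT5B was 0.813 (WT) and 1.78 (CD47-) per kilobase of merged exons, a length that depends on the annotation. The cause of these shifts was not tested.

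Without 1 library, JAK3 between the lines ran from -0.18 to 0.025. Leaving out each library gave 6307 to 6855 genes and 5 to 7 of the 10 between the lines. For 3 h against 1 h it gave 4204 to 7099 genes and 3 to 7 of the 10 in WT, and 4623 to 6220 and 5 to 6 in CD47- cells. For 6 h it gave 6951 to 9404 (WT) and 7245 to 9653 (CD47-) genes, with 6 of the 10 each time. The interactions gave 169 to 1066 genes and 1 to 2 of the 10 at 3 h, and 1459 to 4273 and 1 to 4 at 6 h. CD3+CD28+TSP1 against TSP1 gave 0 to 42 in WT and 0 to 9 for the difference between lines. TSP1 on activated CD47- cells and its difference between lines gave 0 to 1 each, and CD3+CD28 against untreated gave 0 to 226 (WT) and 0 to 6 (CD47-). The values 1066, 4273 and 226 came without CD47- CD3+CD28+TSP1 at 3 h, the shallowest library. SOCS1 had the lowest counts of the 10 genes, 18 to 88 per library.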
